A study of Mus musculus with 64 samples.

Results

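The frontal cortex of Cyfip2 Arg87Cys knock-in (KI) mice was compared with that of wild-type (WT) littermates at postnatal week 28 (PWK 28), by bulk RNA sequencing. The labels name a stranded mRNA library kit and the study's methods a stranded total RNA kit, so whether poly(A) RNA was selected is uncertain, and values of transcripts without a poly(A) tail carry that limit. Of the 64 libraries in the series, which cover cortex and hippocampus at 4 ages, the 8 whose labels give cortex, age 28 weeks and either genotype were taken, 4 KI and 4 WT, each from 1 mouse. All mice were C57BL/6N, and the KI mice were heterozygous, with the Arg87Cys change on 1 allele of Cyfip2 in all cells of the body. Of the 18432 genes in the deposited table, the 18387 with a mean normalized count of at least 1 over the 8 libraries were tested. The question was which functions and gene families differed between the genotypes at the oldest age of the series.

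CYFIP2 is a subunit of the WAVE regulatory complex, which holds the actin nucleation factor WAVE inactive until Rac releases it, after which the Arp2/3 complex builds branched actin in spines, growth cones and presynaptic terminals. Changes of this arginine loosen this inhibition, and in people they cause an early-onset developmental and epileptic encephalopathy. In rodent cortex, repeated seizures are known to alter the messenger RNAs of neuropeptides, activity-regulated transcription factors, ion channels and glial proteins. Because the KI allele is present in every cell type and the tissue was sequenced whole, a lower level of a transcript can come from fewer cells of a type or from less RNA per cell, and these cannot be told apart here.

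Each library expressed a defining marker of cortex, and several libraries stood apart from the others of their group. Slc17a7, a marker of cortical projection neurons, was at 34746 normalized counts or more in every library, and the Y-linked gene Ddx3y at 1076 or more. WT3 and WT4 carried olfactory bulb transcripts: 7 of 9 olfactory bulb markers were higher in both than in all 6 other libraries, and the summed level of the 9 was 5877 and 6654 against 1805 to 4544. Eomes, a transcription factor of olfactory bulb projection neurons, was at 2.65, 1.83, 277 and 296 in WT1 to WT4 and at 0 to 13.6 in the KI libraries. WT2 carried choroid plexus transcripts, with Ttr, the thyroid hormone carrier made by choroid plexus, at 560.2, 20074, 395 and 161 in WT1 to WT4. The summed level of 12 blood and leukocyte markers was 3475 to 6847 in the KI libraries and 8800 to 10124 in the WT libraries, and 5 of them fell in KI (2 without WT3 and WT4), Hbb-bs among them at 2103, 2887, 2416 and 1402 in the KI libraries and 3760.1, 4092, 3741 and 3852 in the WT libraries; their part in other results was not tested. On the first principal component, which held 41.9% of the variance, KI2 scored 0.062, between the other KI libraries at 0.303 to 0.544 and the WT libraries at -0.347 to -0.308. Counts for the gene lists in this cortex are given with all 8 libraries and without WT3 and WT4. In the map of markers by library, the olfactory bulb rows of WT3 and WT4 and the choroid plexus rows of WT2 stand out from the others.

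**Figure D1:**
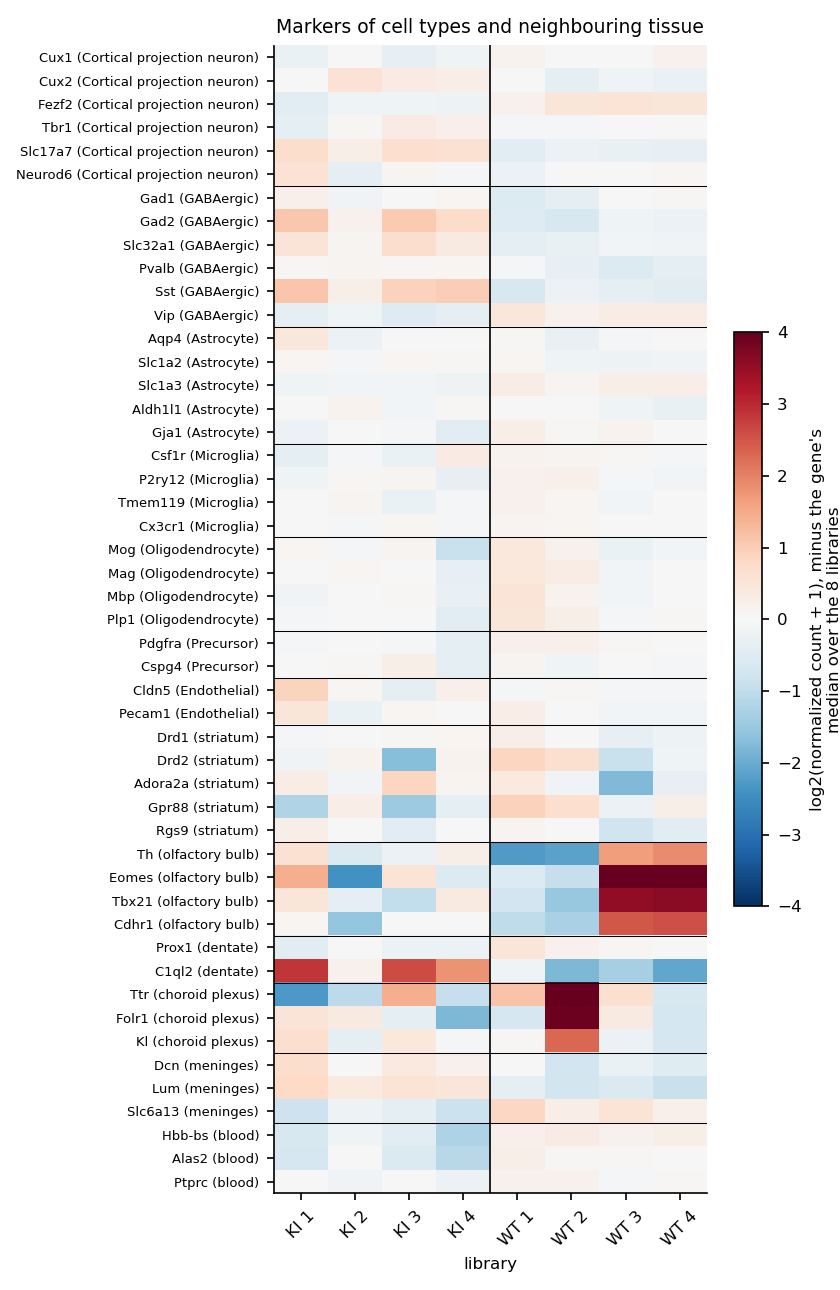
Rows are marker genes grouped by cell type or neighbouring tissue and columns are the 8 libraries; colour is log2(normalized count + 1) minus the gene's median over the 8 libraries. The olfactory bulb rows are highest in WT 3 and WT 4, whose summed levels were 5877 and 6654, and the choroid plexus rows are highest in WT 2.

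Cyfip2 messenger RNA itself fell in the KI cortex. Cyfip2 was at 21597, 30055, 26765 and 24490.4 in the KI libraries and 34022, 35187, 35279 and 34418 in the WT libraries, a log2 fold change of -0.44 ± 0.09 with an adjusted p of 0.0058 in limma. The 2 groups did not overlap, and without WT3 and WT4 the difference was -0.44 with an adjusted p of 0.0657. Brk1, the smallest subunit of the complex, rose by 0.34 on the log2 scale, with an adjusted p of 0.0876 without WT3 and WT4. The other 12 of the 14 tested genes for the complex and the partners of FMRP, the translational repressor that binds CYFIP proteins, did not pass the test, among them the paralog Cyfip1 at 0.05 and Wasf1, which encodes the main neuronal WAVE protein, at 0.01; no member of this list passed without WT3 and WT4.

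Across all genes, 4081 of 18387 (22.2%) passed an adjusted p of 0.05 in limma, 2236 higher in KI (12.2%) and 1845 lower (10%). The median size of these changes was 0.50 on the log2 scale, and 811 genes (4.41%) changed by at least 1 on that scale, 543 upward and 268 downward. Groups did not overlap at all for 4752 genes (25.8%). Without WT3 and WT4, 1417 of 18380 genes (7.71%) passed, 871 higher (4.74%) and 546 lower (2.97%), of which 1361 had passed before and none in the opposite direction; leaving out WT1 and WT2 in their place gave 1428. Without KI2 alone 5090 genes passed, and without WT2 alone 2916. When each library was scaled to the same total, 54.8% of calls being higher became 43.7%, and the median of all genes moved by -0.05. Of the 15474 protein-coding genes tested 2072 rose and 1639 fell, whereas among 71 sense-intronic transcripts none rose and 7 fell. Of the genes named here, 17 lost their call in at least 5 of the 8 fits that each left out 1 library: Adcyap1, Glrb, Mapt and Psmd1 in 7, Bdnf, Cpe, Crh, Fosl2, Grin2a, Grin3b, Nptx2, Nrn1 and Slc16a1 in 6, and Hsp90b1, Iqsec1, Nmb and Pnoc in 5. The share of members called is plotted for the 53 gene lists with at least 10 tested members and at least 6 calls.

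**Figure D2:**
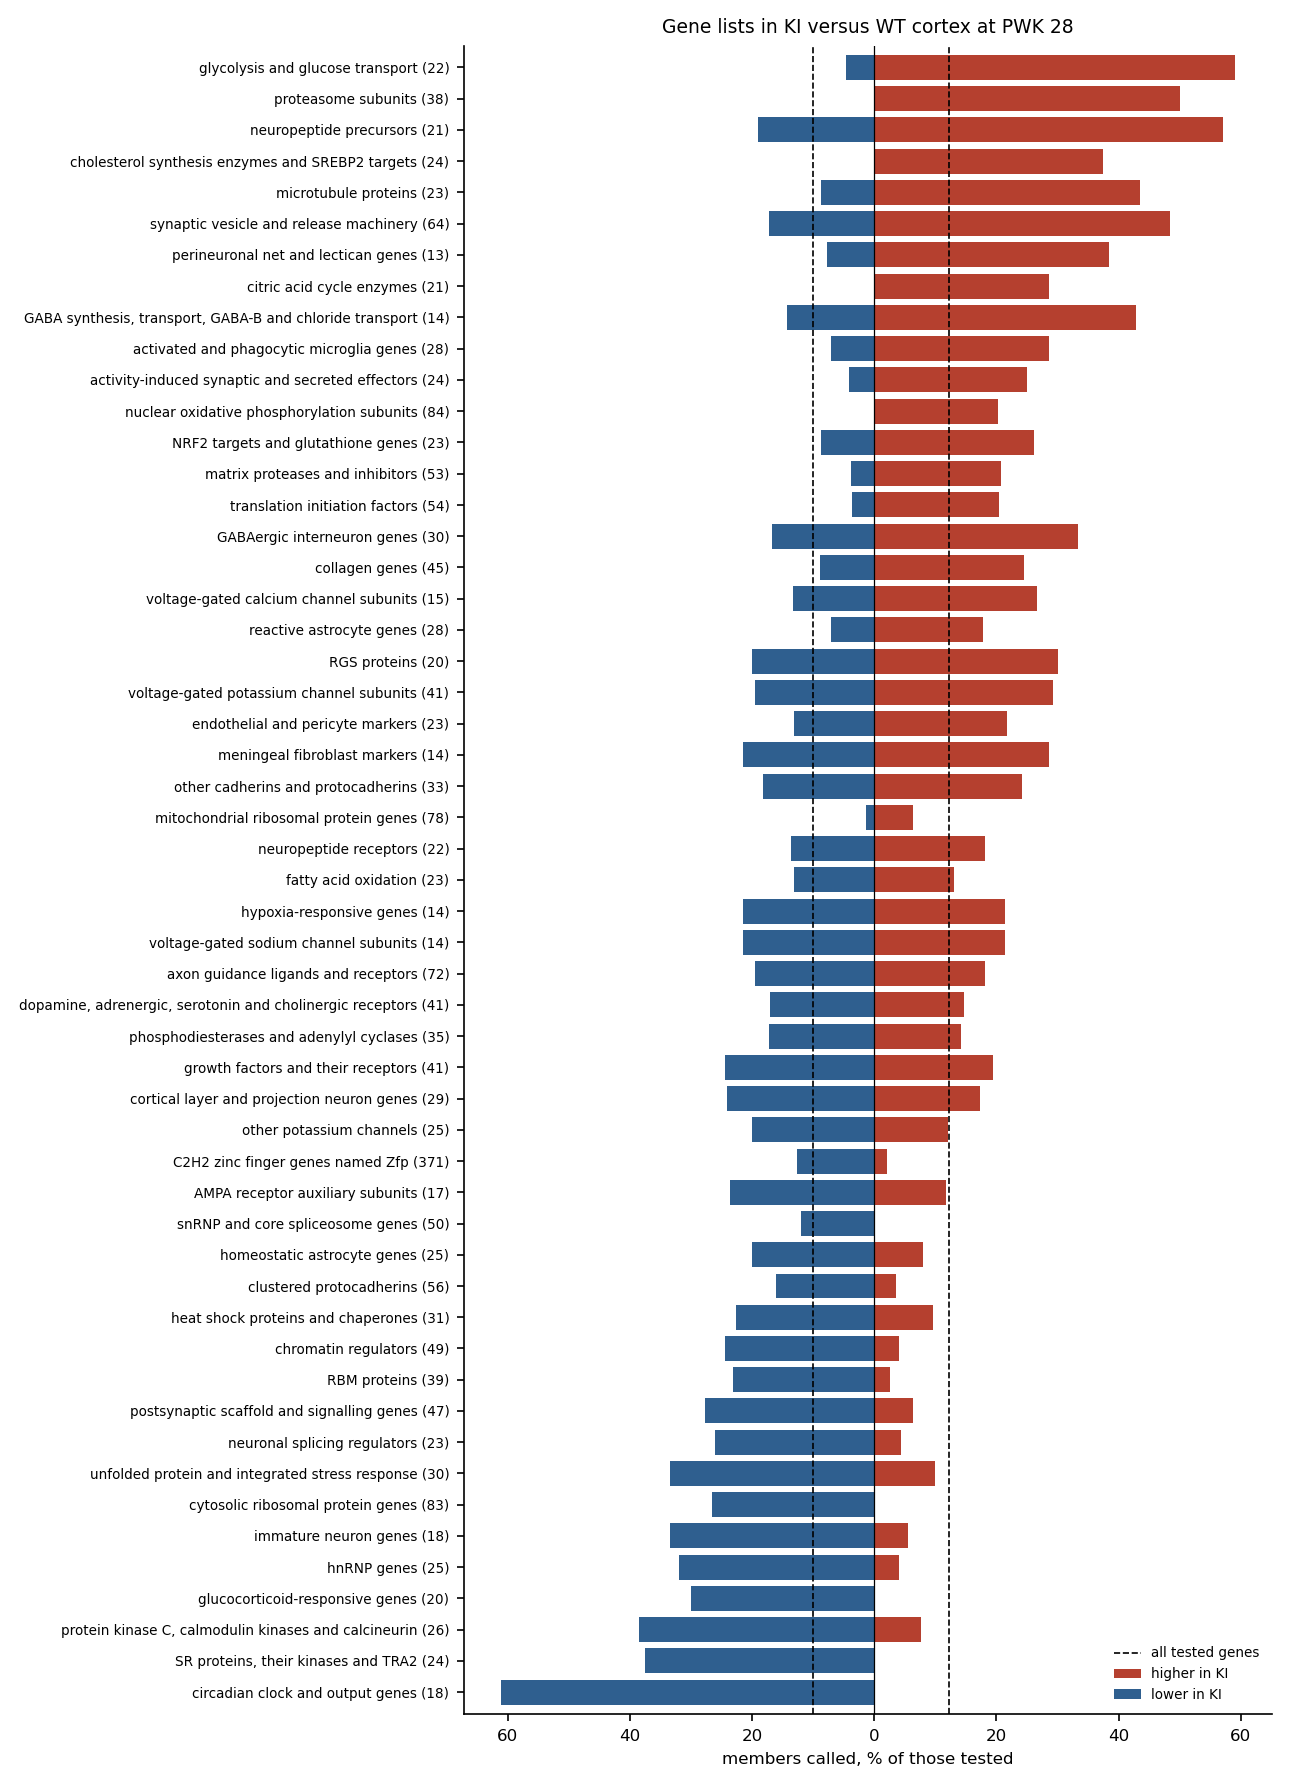
Each row is a gene list, with the number of tested members in brackets; bars give the share of them called higher (right) and lower (left) in KI, in percent, and dashed lines the shares of all tested genes, 12.2% and 10%. Glycolysis, neuropeptide, proteasome and synaptic vesicle genes extend furthest to the right, and clock, calmodulin kinase and SR splicing genes to the left.

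The 10 largest increases and the 10 largest decreases were taken among genes whose groups did not overlap. The largest increases concerned genes that are nearly silent in the WT cortex. The gene of the glycine transporter of inhibitory terminals, Slc6a5, was at 756, 51.3, 828 and 146 in the KI libraries and 1.92, 3.01, 2.88 and 0.961 in the WT libraries, and the sarcoplasmic calcium pump gene of fast muscle, Atp2a1, at 582, 171, 377 and 462 in the KI libraries and 4.53, 7.8, 6.6 and 6.11 in the WT libraries. The log2 fold changes were 6.42 ± 0.77 and 5.67 ± 0.34. Nkx1-2 and Gbx1, homeobox genes of developing neural tissue, rose by 6.38 ± 0.74 and 5.15 ± 0.51. Rgs13, a regulator of G protein signalling, rose by 4.66 ± 0.39, and Fgr, a Src-family kinase of myeloid cells, by 4.41 ± 0.52, with 140.2, 26.8, 170.4 and 111 in the KI libraries and 2.29, 2.64, 4.92 and 4.17 in the WT libraries. The remaining genes among the 10 largest increases were Gal, described below, Pgr15l (4.93 ± 0.60), the kallikrein pseudogene Klk2-ps (4.75 ± 0.51) and the crystallin gene Cryba2 (4.51 ± 0.65).

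The largest decreases included peptides, a receptor and a vesicle fusion sensor of neurons. Ankrd63, which encodes an ankyrin repeat protein, was at 65.9, 183, 34.4 and 133 in the KI libraries and 833, 737, 876 and 945 in the WT libraries. Otof, the calcium sensor of vesicle fusion, was at 109, 404, 131 and 156 in the KI libraries and 1469.7, 1283, 1399.9 and 1247 in the WT libraries, a change of -2.95 ± 0.32. Htr5b, a serotonin receptor, fell by 2.35, Grp, the gastrin-releasing peptide, by 2.59 (-2.41 with an adjusted p of 0.0534 without WT3 and WT4), and Frzb, a secreted Wnt inhibitor, fell by 2.74 on the log2 scale. Plk5, a polo-like kinase of the brain, was at 41.1, 103, 38.3 and 31.6 in the KI libraries and 399, 440.1, 334 and 385 in the WT libraries, with a change of -3.00 ± 0.31. Nlrp6, a member of the inflammasome receptor family, changed by -3.18 ± 0.47 and Psrc1, a spindle protein gene, by -2.20 ± 0.40. Dnah11, an axonemal dynein gene, was at 13.5, 18.2, 3.98 and 9.51 in the KI libraries and 44.1, 31.8, 246 and 300.0 in the WT libraries, highest in WT3 and WT4, and without them its change was -1.81 with an adjusted p of 0.0844. In the plot of the largest changes, KI2 is the lowest KI library for each of the 10 increases.

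**Figure D3:**
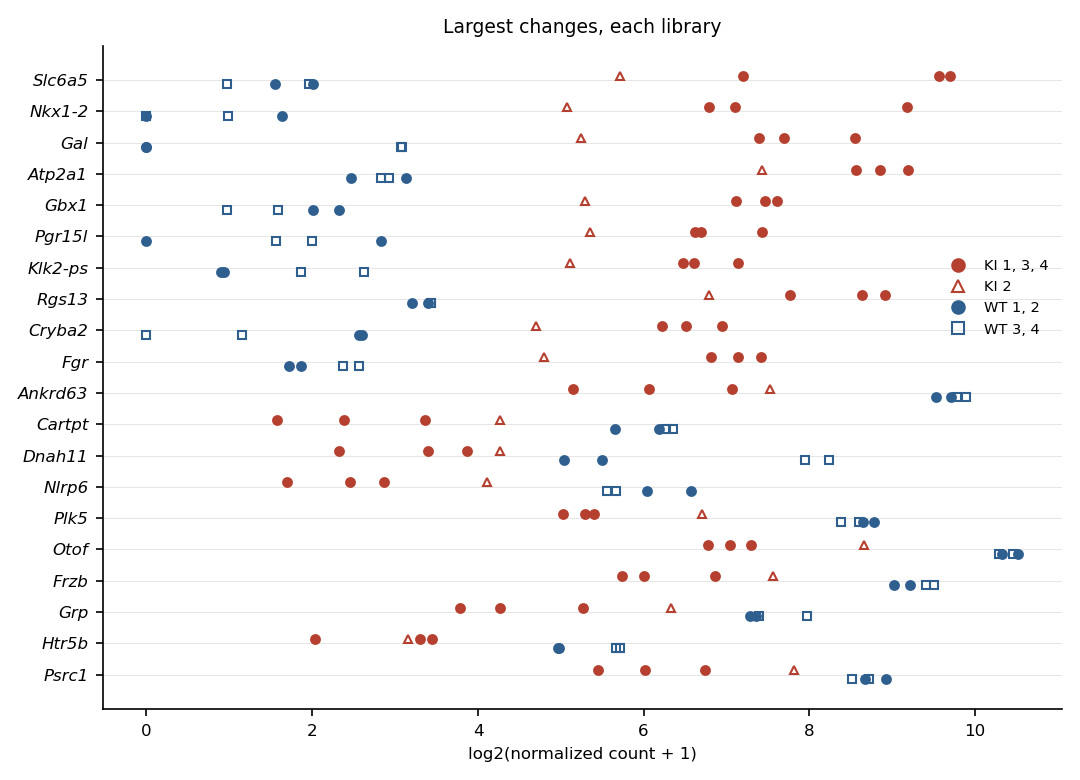
Rows are the 10 genes with the largest increase and the 10 with the largest decrease; the horizontal axis is log2(normalized count + 1) and each point is 1 library, red for KI (open triangle, KI 2) and blue for WT (open square, WT 3 and WT 4). Only genes whose groups do not overlap were eligible, and Slc6a5 runs from 51.3 to 828 in KI against 0.961 to 3.01 in WT.

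Most neuropeptide precursors changed, and more of them upward. Of 21 tested, 12 rose and 4 fell, 57.1% and 19.0%, with a median change of 0.64; without WT3 and WT4, 6 rose and 2 fell, and without any 1 library 8 to 12 rose and 2 to 4 fell. Gal, the precursor of galanin, was at 372, 37.0, 206 and 167 in the KI libraries and 0, 0, 7.50 and 7.41 in the WT libraries (log2 fold change 5.68 ± 0.88, adjusted p = 0.00173). Npy, the precursor of neuropeptide Y, was at 10571, 2990.4, 6489 and 7589.9 in the KI libraries and 1548, 1679.7, 1737 and 1684 in the WT libraries (log2 fold change 1.92 ± 0.29, adjusted p = 0.00166). All KI libraries exceeded all WT libraries for both genes, which for Gal was a condition of its place among the largest increases. KI2 was the lowest KI library for both. The somatostatin gene Sst, which marks a class of dendrite-targeting interneurons, was at 8861, 4853, 7931 and 8108 in the KI libraries and 2667, 3534, 3248 and 3076 in the WT libraries (log2 fold change 1.22 ± 0.17, adjusted p = 0.000882). Granins, the acidic proteins that load dense-core vesicles, rose together: Chga by 1.74 ± 0.20, Scg2 by 1.04 ± 0.29, Vgf by 0.98 ± 0.20 and Chgb by 0.64 ± 0.07. Adcyap1, the precursor of PACAP, rose by 1.48, Tac2, of neurokinin B, by 1.33, Cck, of cholecystokinin, by 0.88, Pnoc, of nociceptin, by 0.63 and Pdyn, of dynorphin, by 0.58.

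The 4 peptide precursors that fell were Cartpt (CART peptide), Nmb (neuromedin B), Crh (corticotropin-releasing hormone) and Vip (vasoactive intestinal peptide, of disinhibitory interneurons). Cartpt was at 1.98, 18.2, 4.22 and 9.24 in the KI libraries and 49.4, 72.1, 76.0 and 80.8 in the WT libraries, a change of -3.22 ± 0.50, and Nmb changed by -1.60 ± 0.47. Vip was at 1112, 1297, 1019 and 1112 in the KI libraries and 1979, 1642, 1786 and 1777 in the WT libraries, and Crh at 135, 60.8, 104 and 88.9 in the KI libraries and 139.8, 144, 178 and 184 in the WT libraries. The 5 members not called were Tac1, Penk, Nts, Trh and Cort, the last at -0.82 with an adjusted p of 0.113.

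The promoters of Sst, Scg2, Chgb and Cartpt hold the cAMP response element in its full palindromic form, TGACGTCA, which reads the same on both strands and is the binding site of CREB, within the 250 bases before and 50 after the transcript start that were searched. They are shown because 4 of the 17 peptide precursor genes with a promoter window carried it (23.5%), against 422 of 12938 tested genes with a window (3.26%). Of these 4 genes 3 rose and 1 fell, beside 12 rising and 4 falling in the whole peptide list. Each line gives the 250 bases before the RefSeq transcript start on GRCm38.p6, in the direction of transcription, with the element in capitals. The windows are chr16:23890845-23891094 (minus strand), chr1:79440027-79440276 (minus), chr2:132781392-132781641 (plus) and chr13:99900684-99900933 (minus).
Sst: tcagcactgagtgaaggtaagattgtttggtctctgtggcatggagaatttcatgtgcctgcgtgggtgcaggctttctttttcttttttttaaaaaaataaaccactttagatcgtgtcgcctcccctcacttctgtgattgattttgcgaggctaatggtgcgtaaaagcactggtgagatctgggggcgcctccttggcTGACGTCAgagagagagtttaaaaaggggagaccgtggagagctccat
Scg2: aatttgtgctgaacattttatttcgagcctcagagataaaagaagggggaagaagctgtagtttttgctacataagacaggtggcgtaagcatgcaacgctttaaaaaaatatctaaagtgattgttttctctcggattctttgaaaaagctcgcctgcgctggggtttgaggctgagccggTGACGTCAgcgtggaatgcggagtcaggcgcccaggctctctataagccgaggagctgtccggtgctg
Chgb: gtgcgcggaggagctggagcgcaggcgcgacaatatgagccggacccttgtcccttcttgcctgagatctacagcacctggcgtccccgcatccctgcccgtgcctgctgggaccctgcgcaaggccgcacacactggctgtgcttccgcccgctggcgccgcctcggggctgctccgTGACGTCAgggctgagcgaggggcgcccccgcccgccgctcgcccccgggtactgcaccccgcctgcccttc
Cartpt: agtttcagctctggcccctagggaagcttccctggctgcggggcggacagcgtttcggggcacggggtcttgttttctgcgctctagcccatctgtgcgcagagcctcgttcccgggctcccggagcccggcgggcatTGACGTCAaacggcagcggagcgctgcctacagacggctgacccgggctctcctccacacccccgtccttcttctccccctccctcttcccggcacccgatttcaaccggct
The element starts 48 bases before the transcript start in Sst, 68 in Scg2, 72 in Chgb and 112 in Cartpt. A match describes the sequence only, and binding was not measured. The list was chosen with earlier results known, so the share describes the list and not the direction of the change.

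Receptors and processing enzymes of peptides changed in both directions. The receptors rose for 18.2% and fell for 13.6%, close to the 12.2% and 10% of all genes. The processing and granin partner genes did so for 22.2% and 22.2%. Of 22 peptide receptors 4 rose and 3 fell, and of 9 processing and granin partner genes 2 rose and 2 fell; without WT3 and WT4 the counts were 2 and 2, and 0 and 1. Pcsk1, the prohormone convertase of the regulated pathway, was at 1307, 1182, 994 and 787 in the KI libraries and 3146, 2948, 3813 and 3426 in the WT libraries and fell by 1.66 on the log2 scale, whereas Pcsk2, the other neuronal convertase, rose by 0.20 and Cpe, the carboxypeptidase that trims the peptides, by 0.27. Cadps2, a priming factor of dense-core vesicles, fell by 0.99.

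Transcription factors induced by neuronal firing were spread far apart among the 4 KI libraries. Of 19 tested, 5 passed the test, beside 22.2% of all genes. Fos was at 3853, 229, 1843 and 128 in the KI libraries and 958, 1052, 1173 and 941 in the WT libraries, and Npas4, which is induced by calcium entry alone, at 8394, 293, 4044 and 127 in the KI libraries and 1088, 1132, 1226 and 1158 in the WT libraries. KI1 and KI3 lay above every WT library and KI2 and KI4 below every WT library, with log2 fold changes of -0.60 ± 0.88 and -0.11 ± 1.09. Egr1 had the same order, at 17505, 2831, 13199.7 and 1111 in the KI libraries and 9675, 9378, 10230.4 and 10239 in the WT libraries. Of the 19 immediate early transcription factors 1 rose, Jun (1.40 ± 0.15), and 4 fell, Fosl2 (-1.49), Egr3 (-1.17), Nr4a2 (-1.0) and Nr4a3 (-1.75). These were 5.26% and 21.1%, beside 12.2% and 10% of all genes. Without WT3 and WT4 the counts were 1 and 0, beside 4.74% and 2.97% of all genes.

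Of 24 slower effectors of activity 6 rose and 1 fell, with a median of 0.28, and with 2 rising and none falling without WT3 and WT4; 2 also rose without WT2 alone and without WT4 alone, and 3 without any 1 of KI1, KI3, WT1 and WT3. Bdnf, the neurotrophin, was at 6395, 1552, 5505 and 2069.8 in the KI libraries and 1206, 1109, 1425 and 1231 in the WT libraries (log2 fold change 1.40 ± 0.39, adjusted p = 0.027). Nptx2, a secreted organiser of AMPA receptors on interneurons, was at 12938, 4074, 13227 and 2299 in the KI libraries and 2106, 1867, 2328 and 2092 in the WT libraries (log2 fold change 1.60 ± 0.48, adjusted p = 0.0357). Both lost their call in 6 of the 8 fits without 1 library. Nptx1, its relative, rose by 0.75, Sorcs3, a sorting receptor of the postsynapse, by 0.63, Plk2, a kinase of synaptic scaling, by 0.31 and Nrn1, neuritin, by 0.39. Arc, which removes AMPA receptors from synapses, was at 12795, 2486, 8132 and 1508 in the KI libraries and 11397, 12045, 12652 and 9900.0 in the WT libraries and was not called. In Bdnf, Nptx2 and Arc, as in Fos, KI1 and KI3 lay above KI2 and KI4.

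Genes of the presynaptic terminal rose more often than they fell. Of 64 tested genes for synaptic vesicles and release, 31 rose and 11 fell (48.4% and 17.2%), with a median of 0.19; the counts were 17 and 5 without WT3 and WT4, and 23 and 12 with libraries scaled to the same total. Slc17a7, the vesicular glutamate transporter of cortical neurons, was at 77637, 56223, 76040.1 and 72696 in the KI libraries and 34746, 40205, 38354 and 37817 in the WT libraries (log2 fold change 0.89 ± 0.10, adjusted p = 0.000367), with no overlap between the groups. Syn2, a synapsin that tethers vesicles, rose by 1.03 ± 0.10, Amph, an endocytic adaptor, by 0.92 ± 0.07 and Doc2a, a calcium sensor of spontaneous release, by 0.85 ± 0.13. Among the genes that fell were Slc17a6, the transporter of thalamic and other subcortical glutamatergic neurons (-0.84 ± 0.16), Stx1a, a plasma membrane SNARE (-0.79 ± 0.15), Rims3, of the active zone (-0.63 ± 0.12), and Syt7, the sensor of asynchronous release and facilitation (-0.59 ± 0.08).

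Postsynaptic genes fell more often than they rose. Of 47 scaffold and signalling genes 13 fell and 3 rose (27.7% and 6.38%), with a median of -0.13, and 8 and 2 without WT3 and WT4; 20 fell without KI2. Camk2a, the alpha subunit of the kinase of long-term potentiation, was at 53386, 81794, 59199.7 and 64184 in the KI libraries and 113078, 108911, 98251 and 99994 in the WT libraries (log2 fold change -0.72 ± 0.12, adjusted p = 0.00203). Homer2, a scaffold of metabotropic glutamate receptors, fell by 0.94 and Synpo, the organiser of the spine apparatus, by 0.87 on the log2 scale. Nlgn1, the adhesion molecule of excitatory synapses, Rasgrp1, a Ras activator, and Iqsec1, an exchange factor of small G proteins, rose by 0.46, 0.45 and 0.21. The wider list of calcium-dependent kinases and calcineurin held 10 members that fell and 2 that rose of 26, and 6 and 1 without WT3 and WT4; Camk1g fell by 1.1 and the kinase inhibitor Camk2n1 by 1.11.

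Receptor subunits for glutamate, GABA and glycine changed in both directions, in lists of few members. Among all genes 12.2% rose and 10% fell. The shares rising and falling were 28.6% and 14.3% for NMDA and 22.2% and 33.3% for AMPA and kainate subunits. They were 14.3% and 14.3% for metabotropic receptors, close to those of all genes, and 14.3% and 21.4% for GABA-A subunits. Of 7 NMDA receptor subunits the 2 that rose were the non-classical Grin3a (1.20 ± 0.16) and Grin3b (1.51 ± 0.44), and the 1 that fell was Grin2a (-0.37 ± 0.11), the subunit of mature synapses. Without WT3 and WT4 1 rose and none fell, and Grin3b and Grin2a each lost their call in 6 of the 8 fits without 1 library, Grin3b also with the replicate block and with quality weights. Of 9 AMPA and kainate subunits 2 rose and 3 fell, and 2 and 1 without WT3 and WT4. Grm2, a presynaptic inhibitory glutamate receptor, was at 409, 935, 453 and 369 in the KI libraries and 1061, 1218, 1409 and 1364 in the WT libraries and fell by 1.32 on the log2 scale. Grm7, another metabotropic glutamate receptor, rose by 0.45. None of the 7 metabotropic receptors passed without WT3 and WT4. Of 14 GABA-A receptor subunits 3 fell and 2 rose (5 and 2 with libraries scaled to the same total, 1 and 1 without WT3 and WT4), among them Gabrd, the extrasynaptic delta subunit (-0.83 ± 0.17), and Gabre, the epsilon subunit (2.16 ± 0.51).

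Of 14 genes for GABA synthesis, transport, GABA-B receptors and chloride transport 6 rose and 2 fell, 5 and 1 without WT3 and WT4, and 5 and 4 with libraries scaled to the same total. Gad2, the synaptic GABA-synthesizing enzyme, was at 15594, 8293, 14995 and 12078 in the KI libraries and 5131, 4721, 6461 and 6189.8 in the WT libraries (log2 fold change 1.15 ± 0.18, adjusted p = 0.00187), whereas its partner Gad1 was at 0.24 with an adjusted p of 0.193. Slc32a1, the vesicular transporter of GABA and glycine, rose by 0.65 ± 0.11. Slc12a5, the KCC2 chloride exporter that keeps GABA inhibitory, was at 12467, 16018, 13404 and 12993 in the KI libraries and 18075, 18134, 18355 and 17667 in the WT libraries (log2 fold change -0.40 ± 0.07, adjusted p = 0.00389). Of 6 glycine genes 3 rose, Slc6a5 as above, Glra1, the adult receptor subunit of brainstem and spinal cord (4.31 ± 0.45), and Glrb (0.16 ± 0.05), and Glra2 fell (-0.70 ± 0.19). Without WT3 and WT4 2 rose and none fell; Glrb lost its call in 7 of the 8 fits without 1 library and with equal totals or the replicate block, and Glra2 in 4 of the 8.

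Voltage-gated channels changed in both directions. Potassium channel subunits rose for 29.3% and fell for 19.5%, beside 12.2% and 10% of all genes. Sodium channel genes did so for 21.4% and 21.4%. Of 41 potassium channel subunits 12 rose and 8 fell, and 6 and 4 without WT3 and WT4. Kcnip2, an auxiliary subunit of the A-type current, was at 831, 1804, 955 and 1049.8 in the KI libraries and 3471, 3209, 3081 and 3353 in the WT libraries and fell by 1.56 on the log2 scale, and the silent subunit Kcng1 and the EAG-family Kcnh4 by 1.42 and 1.24. Kcnip3, another subunit of the A-type current, Kcnab1, a beta subunit, and Kcnh1 rose by 0.93, 0.93 and 0.78. Of 14 sodium channel genes 3 rose and 3 fell, and 2 and 2 without WT3 and WT4. Scn7a, the sodium-sensing channel, rose by 2.45 ± 0.33 and Scn4b, a beta subunit of resurgent current, fell by 0.84.

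Most genes of glucose use rose. Of 22 genes for glycolysis and glucose transport 13 rose and 1 fell (59.1% and 4.55%), with a median of 0.43, and 10 and 1 without WT3 and WT4. Hk1, the first enzyme of glycolysis in brain, was at 20058, 15630.2, 20812 and 17527 in the KI libraries and 10398, 12173, 11834 and 11608 in the WT libraries (log2 fold change 0.68 ± 0.09, adjusted p = 0.000781). Slc2a1, the glucose transporter of the blood-brain barrier and astrocytes, rose by 0.63 ± 0.11 and Slc2a3, the neuronal one, by 0.34 ± 0.08. Aldoa, Pkm, Pgk1 and Tpi1, enzymes further down the pathway, rose by 0.66, 0.52, 0.45 and 0.23. The 2 lactate dehydrogenase subunits moved apart: Ldha, the form that favours lactate production, was at 12287, 9597, 12243 and 11038 in the KI libraries and 6856, 7715, 7456 and 7489 in the WT libraries (log2 fold change 0.61 ± 0.08, adjusted p = 0.000766), and Ldhb, the form that favours pyruvate, at 7673, 9026, 7499 and 7605 in the KI libraries and 11072, 11702, 11099 and 10874 in the WT libraries (log2 fold change -0.50 ± 0.07, adjusted p = 0.000744). Neither gene overlapped between the groups. Slc16a1, a lactate and pyruvate carrier, rose by 0.54.

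Mitochondrial genes had smaller changes. Of 21 citric acid cycle enzymes 6 rose and none fell, and of 84 nuclear-encoded subunits of oxidative phosphorylation 17 rose and none fell (20.2%), with medians of 0.14 and 0.12; the 17 became 9 without KI3 and 10 without WT1 or WT4. Each list had 3 rising members without WT3 and WT4. Sdhb, of complex II, rose by 0.56 ± 0.11, Atp5g1, of the ATP synthase ring, by 0.54 ± 0.09 and Ndufv3, of complex I, by 0.55 ± 0.11. Of the 13 genes encoded by the mitochondrial genome 2 rose, and of 78 mitochondrial ribosomal protein genes 5 rose and 1 fell, and 2 and 2 with libraries scaled to the same total. None of the former and 1 of the latter rose without WT3 and WT4, and none fell.

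Many proteasome subunits rose, and several chaperones of the endoplasmic reticulum fell. Of 38 proteasome subunits 19 rose and none fell (50%), with a median of 0.20. The number depended on the libraries, as 7 to 12 rose without any 1 of KI1, KI3 and the WT libraries, and 11 with libraries scaled to the same total. Without WT3 and WT4, where 4.74% of all genes rose, 2 rose. The median moved less, at 0.22 without WT3 and WT4 and 0.18 to 0.25 without any 1 library. Psmd1 and Psma1, of the 19S regulator and the 20S core, rose by 0.20 ± 0.06 and 0.23 ± 0.06. Of 30 genes of the unfolded protein and integrated stress responses 10 fell and 3 rose, and 2 and 0 without WT3 and WT4. Hspa5, the BiP chaperone that senses unfolded proteins, was at 6457, 7239, 6055 and 7736 in the KI libraries and 8902, 10037, 9801 and 11211 in the WT libraries (log2 fold change -0.54 ± 0.09, adjusted p = 0.0023). Sdf2l1, a BiP cofactor, fell by 0.71, Pdia4 and Pdia6, which form disulfide bonds, by 0.58 and 0.43, Creld2 by 0.52, Manf, a secreted stress protein, by 0.45 and Xbp1, the transcription factor of the response, by 0.55 on the log2 scale. The 3 that rose were Sesn2 (0.62) and Asns (0.51), targets of the ATF4 branch, and Atf6 (0.24).

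The endoplasmic reticulum stress response element, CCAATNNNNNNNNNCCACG, bound by ATF6 with NF-Y, was searched on both strands of the same promoter windows. It was present in 7 of 27 genes of this list with a window (25.9%) and in 21 of 12938 tested genes (0.162%). Of the 7, Hspa5, Pdia6, Creld2, Calr and Hsp90b1 fell, the last pair by 0.28 and 0.19 on the log2 scale, and Dnajc3 and Canx did not pass the test, at -0.20 and 0.12. The 3 windows of the genes with the largest decrease are chr2:34771840-34772089, chr12:17266339-17266588 and chr15:88819396-88819645, all on the plus strand of GRCm38.p6, with the element in capitals.
Hspa5: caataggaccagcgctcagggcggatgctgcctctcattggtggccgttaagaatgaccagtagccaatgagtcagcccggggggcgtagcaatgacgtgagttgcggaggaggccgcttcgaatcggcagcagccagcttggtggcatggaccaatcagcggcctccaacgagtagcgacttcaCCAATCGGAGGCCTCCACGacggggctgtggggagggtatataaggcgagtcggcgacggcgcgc
Pdia6: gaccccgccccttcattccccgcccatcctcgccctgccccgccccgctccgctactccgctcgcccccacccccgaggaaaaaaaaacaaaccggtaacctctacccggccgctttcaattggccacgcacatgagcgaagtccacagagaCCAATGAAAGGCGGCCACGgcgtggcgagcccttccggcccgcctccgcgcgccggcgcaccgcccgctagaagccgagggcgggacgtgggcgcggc
Creld2: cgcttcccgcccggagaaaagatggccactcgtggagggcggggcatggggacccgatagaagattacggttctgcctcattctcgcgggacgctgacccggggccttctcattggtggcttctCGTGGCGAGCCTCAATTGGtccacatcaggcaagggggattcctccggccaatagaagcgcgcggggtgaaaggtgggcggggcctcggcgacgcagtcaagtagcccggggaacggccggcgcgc
It starts 65 bases before the transcript start in Hspa5, 98 in Pdia6 and 126 in Creld2, where the match is the reverse complement. The element is part of how such genes are recognised, so its share describes the list and not the direction of the change.

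**Figure D4:**
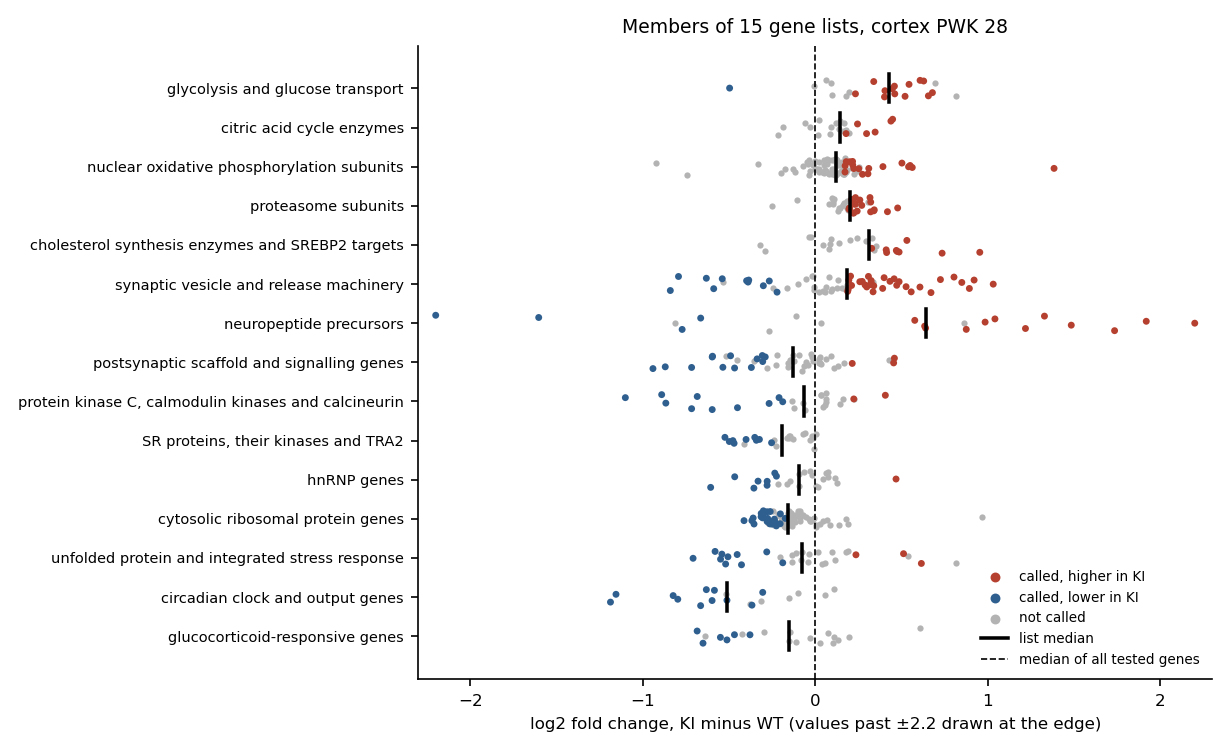
Each point is a tested gene of 1 of 15 gene lists, placed by its log2 fold change (KI minus WT); red points were called higher, blue points lower and grey points were not called, black bars are list medians and the dashed line the median of all tested genes. Glycolysis is centred at 0.43 and the clock genes at -0.51, while the proteasome points lie close together around 0.20; 2 members lie past the edge of 2.2.

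Most clock genes fell in the KI cortex. Of 18 core clock and output genes 11 fell and none rose (61.1%), with a median of -0.51, and 4 fell without WT3 and WT4. Dbp, an output transcription factor, was at 714, 1495, 1037 and 943 in the KI libraries and 1699.6, 1900.3, 1596 and 1849.7 in the WT libraries (log2 fold change -0.80 ± 0.18, adjusted p = 0.0106). Bhlhe40, a repressor that also responds to neuronal firing, was at 2117, 2493, 2118 and 1912 in the KI libraries and 4758, 4719, 4939.5 and 5181 in the WT libraries (log2 fold change -1.19 ± 0.08, adjusted p = 4.33e-05). The genes that fell included members of the negative limb, Per3 (-0.82), Per2 (-0.58), Per1 (-0.51) and Cry2 (-0.30), and of the positive limb, Arntl (-0.66) and Npas2 (-0.60). Cry1, of the negative limb, was at -0.15 with an adjusted p of 0.359, and Clock, of the positive limb, at 0.11 with an adjusted p of 0.217. The E-box bound by the clock proteins, CACGTG on both strands, was in the promoter windows of 5 of 16 of these genes (31.2%) and of 10.9% of all tested genes. Of the 5, Ciart (-0.63) and Per1 fell, and the rest, among them Cry1 and Bhlhe41 (0.06), did not pass the test. The list was chosen with earlier results known, so the share describes the list and not the direction of the change. Brains of all groups were collected in the same afternoon window according to the labels, but the collection time of each mouse is not given in the sources used here.

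Of 20 glucocorticoid-responsive genes 6 fell and none rose, and 3 fell without WT3 and WT4. Tsc22d3, the glucocorticoid-induced leucine zipper, was at 1979, 2049, 1922 and 1944 in the KI libraries and 3514, 2928, 3312 and 2968 in the WT libraries (log2 fold change -0.68 ± 0.07, adjusted p = 0.00024), with no overlap. Heat shock proteins and cytosolic chaperones fell for 7 and rose for 3 of 31, and of 14 p53 targets 3 fell; without WT3 and WT4 the falls were 4 and 0 and the increases 1 and 0. NRF2 targets and glutathione genes rose for 6 and fell for 2 of 23, for 6 and 4 with libraries scaled to the same total and for 2 and 1 without WT3 and WT4.

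Several genes of RNA processing fell by small amounts. Of 24 SR splicing factors and their kinases 9 fell and none rose (37.5%), with a median of -0.20, and 4 fell without WT3 and WT4 and 15 without KI2. Of 25 hnRNP genes 8 fell and 1 rose, of 39 RBM proteins 9 and 1, of 50 core spliceosome genes 6 and 0, and of 23 neuronal splicing regulators 6 and 1. The falls were 32%, 23.1%, 12% and 26.1%, beside 10% of all genes, so the core spliceosome was close to that share. Without WT3 and WT4, where 2.97% of all genes fell, the falls and increases in these 4 lists were 2 and 0, 2 and 0, 1 and 0, and 1 and 1. RNA helicases fell for 4 of 53 (7.55%). Srsf5 was at 9620.5, 9886, 10006 and 8011 in the KI libraries and 12057, 12051, 12154 and 11125 in the WT libraries (log2 fold change -0.34 ± 0.07, adjusted p = 0.00874). Cytosolic ribosomal protein genes fell for 22 and rose for none of 83 (26.5%), with a median of -0.16. That count was 14 without WT3 and WT4, 6 to 12 without any 1 of KI1, KI4, WT1, WT2 and WT3, and 35 with libraries scaled to the same total. Rps21 was at 1567, 1851, 1959 and 1645 in the KI libraries and 2729.9, 2514, 2098 and 2041 in the WT libraries (log2 fold change -0.41 ± 0.11, adjusted p = 0.0193). Translation initiation factors rose for 11 and fell for 2 of 54, and for 5 and 2 with libraries scaled to the same total; 3 to 6 rose without KI3 or any 1 WT library, and 1 rose and 1 fell without WT3 and WT4.

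Zinc finger genes named Zfp, many of them KRAB-type repressors, fell for 47 and rose for 8 of 371 (12.7% and 2.16%), with a median of -0.13. Their share of decreases was close to the 10% of all genes, and 6 fell and 1 rose without WT3 and WT4; 23 to 29 fell without KI3 or any 1 WT library and 76 without KI2. Of 49 chromatin regulators 12 fell and 2 rose, with 5 or 6 falling without KI3 or any 1 WT library, and of 29 histone genes 3 fell and 2 rose. Only 2 chromatin regulators fell, none rose and no histone gene passed without WT3 and WT4.

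Genes of activated microglia rose more often than they fell, while the list of reactive astrocyte genes moved little as a whole. Of 28 reactive astrocyte genes 5 rose and 2 fell (17.9% and 7.14%), beside 12.2% and 10% of all genes. Their median was 0.12, from -0.06 to 0.18 without any 1 library, and 16 were positive and 12 negative. Without WT3 and WT4, where 4.74% of all genes rose and 2.97% fell, 5 rose and 0 fell. Aspg, an asparaginase, was at 882, 679.5, 1008 and 752 in the KI libraries and 148, 137, 192 and 104 in the WT libraries (log2 fold change 2.52 ± 0.18, adjusted p = 5.19e-05), and Serpina3n, a secreted protease inhibitor, at 1938, 855, 1418 and 1699.6 in the KI libraries and 391, 431, 374 and 409.9 in the WT libraries (log2 fold change 1.81 ± 0.21, adjusted p = 0.000434). Cd44, the hyaluronan receptor, rose by 1.79 ± 0.26. Of 28 genes of activated and phagocytic microglia 8 rose and 2 fell (28.6% and 7.14%), and 3 and 2 without WT3 and WT4. Lgals3, galectin-3, was at 92.0, 26.0, 54.9 and 52.5 in the KI libraries and 4.00, 4.13, 3.94 and 7.21 in the WT libraries (log2 fold change 3.20 ± 0.38, adjusted p = 0.000533), Gpnmb, a glycoprotein of lipid-laden phagocytes, rose by 1.34 ± 0.30 and Lpl, lipoprotein lipase, fell by 1.20 on the log2 scale. None of 14 homeostatic microglia genes was called, P2ry12 at -0.14 and Tmem119 at -0.10 among them. Of 26 mature myelin genes 4 fell and none rose, and 5 fell without WT3 and WT4.

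Cholesterol synthesis genes, regulated by SREBP2, rose for 9 and fell for none of 24 (37.5%), with a median of 0.31, but for 1 without WT3 and WT4, 4 without WT1, 5 without KI3 and 14 without KI4. Sqle, a rate-limiting enzyme of the pathway, was at 0.34 with an adjusted p of 0.0557.

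Among the called genes of the extracellular matrix more rose than fell. Of 45 collagen genes 11 rose and 4 fell, 7 and 2 without WT3 and WT4 and 11 and 6 with libraries scaled to the same total, and of 53 matrix proteases and inhibitors 11 and 2, and 5 and 2 without these libraries. The shares were 24.4% and 8.89% for collagens and 20.8% and 3.77% for proteases, beside 12.2% and 10% of all genes. Of 13 genes for perineuronal nets, the coats around fast-spiking interneurons, and their lecticans 5 rose and 1 fell, and 3 and 0 without WT3 and WT4. The net list had a median of 0.0041, from -0.02 to 0.17 without any 1 library, with 7 members positive and 6 negative. Tnc, tenascin C, was at 2867, 179.5, 1250.1 and 1099 in the KI libraries and 119.8, 102, 109.6 and 119.5 in the WT libraries (log2 fold change 3.02 ± 0.64, adjusted p = 0.00802). Hapln4, a link protein of the nets, rose by 1.31 ± 0.09, and Has3, a hyaluronan synthase, fell by 1.01. Markers of meningeal fibroblasts, a source of collagen, rose for 4 and fell for 3 of 14 (3 and 2 without WT3 and WT4), with summed levels of 6983 to 8651 in KI and 7881 to 10876 in WT. Their part in the matrix changes was not tested.

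Interneuron genes changed in both directions, with 33.3% rising and 16.7% falling, beside 12.2% and 10% of all genes. Of 30 tested 10 rose and 5 fell, and 11 and 4 without WT3 and WT4. Beside Sst and Npy, Crhbp, a binding protein of corticotropin-releasing hormone found in somatostatin interneurons, was at 2534, 946, 1732 and 1698 in the KI libraries and 382, 413, 434 and 419 in the WT libraries (log2 fold change 1.98 ± 0.23, adjusted p = 0.000482). Pvalb, of fast-spiking cells, rose by 0.39 ± 0.10. Vip, as above, and Lamp5, of neurogliaform and some pyramidal cells, fell, the latter from 5138 to 6002 in WT to 1130.5 to 2898 in KI (log2 fold change -1.86 ± 0.25, adjusted p = 0.000766). Calb2, calretinin, was at 166, 129.6, 145 and 107 in the KI libraries and 261, 258, 1397 and 1465 in the WT libraries, highest in WT3 and WT4, and without them its change was -0.94 with an adjusted p of 0.0324. Of 29 genes of cortical layers and projection neurons 5 rose and 7 fell, and 3 and 2 without WT3 and WT4: Cux2, of upper layers, rose by 0.48 ± 0.12 and Fezf2, which specifies subcerebral neurons, fell by 0.66.

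Immature neuron genes fell for 6 and rose for 1 of 18, with a median of -0.42; without WT3 and WT4 3 fell and 1 rose, with a median of -0.20. Dcx, doublecortin, was at 1076, 1371, 932 and 972 in the KI libraries and 1653, 1478, 2251 and 2635 in the WT libraries, highest in WT3 and WT4, and its change without them was -0.54 with an adjusted p of 0.0699. C1ql2, a synaptic organiser of the dentate mossy fibres, was at 311, 47.1, 263 and 149 in the KI libraries and 37.6, 11.5, 16.3 and 9.17 in the WT libraries (log2 fold change 3.20 ± 0.58, adjusted p = 0.0038), and the summed level of the 10 dentate and hippocampal markers was 8080 to 9375 in KI and 7636 to 8799 in WT.

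The 3 neurofilament subunits, which form 1 filament, moved apart. Nefl and Nefm fell by 0.60 and 0.85, and Nefh, the heavy subunit, rose by 0.90 on the log2 scale. Nefm was at 3681, 4042, 3131 and 3779 in the KI libraries and 5959, 7093, 7042 and 6194 in the WT libraries and Nefh at 3645, 2493, 2967 and 3363 in the KI libraries and 1638, 1781, 1558 and 1652 in the WT libraries. Each of the 3 kept its call without WT3 and WT4. Of 23 microtubule genes 10 rose and 2 fell, and 4 and 0 without WT3 and WT4, with Map1b, of growing axons, at 0.49 ± 0.09, Stmn2, a destabiliser needed for axon repair, at 0.38 ± 0.06 and Mapt, which encodes tau, at -0.20 ± 0.06. Mapt lost its call in 7 of the 8 fits without 1 library, with the GC and length correction and with the replicate block.

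Of 41 growth factors and receptors 8 rose and 10 fell, and 4 and 1 without WT3 and WT4; without 1 library, 4 to 10 rose and 5 to 12 fell, and with libraries scaled to the same total 6 and 11. Tgfb1 was at 1191, 290.0, 818 and 687 in the KI libraries and 118, 93.1, 103 and 113 in the WT libraries (log2 fold change 2.63 ± 0.34, adjusted p = 0.000689), Ntf3, neurotrophin-3, fell by 1.84 and Igf2, a growth factor of meninges and choroid plexus, by 1.79 on the log2 scale. Igf2 was at 506, 709, 644 and 465 in the KI libraries and 2474, 2156, 1740.5 and 1677 in the WT libraries. Of 72 axon guidance genes 13 rose and 14 fell, of 56 clustered protocadherins 2 and 9 (1 to 4 falling without any 1 library other than KI2), of 33 other cadherins 8 and 6, of 41 monoamine and acetylcholine receptors 6 and 7 and of 20 RGS proteins 6 and 4 (3 and 4 with libraries scaled to the same total). These 5 lists had 4 rising and 5 falling members, none, 7 and 1, 4 and 3, and 2 and 1 without WT3 and WT4. The cadherin Cdh23, of tip links, rose by 2.71 ± 0.43. It was at 29.5, 24.1, 105 and 100 in WT1 to WT4, and its change without WT3 and WT4 was 3.66.

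Families were also formed by symbol alone, from the letters before the first digit, with no choice of function. Of 258 families with at least 8 tested members, those with the highest share of increases included the Psma (5 of 8) and Psmd (7 of 14) proteasome genes, the Cops subunits of the COP9 signalosome (4 of 9), the Fndc fibronectin domain proteins (4 of 8), the Akr aldo-keto reductases, the Mgat glycosyltransferases, the Pcsk convertases and the Prmt arginine methyltransferases (3 of 8 each). Fndc9 rose by 2.50 ± 0.41 and Akr1c18, which inactivates progesterone, by 1.68 ± 0.25. The families with the highest share of decreases included Srsf splicing factors (5 of 11), Camk kinases (4 of 10), Shisa transmembrane proteins and Kcnh channels (3 of 8 each), Hdac deacetylases (4 of 11), Kmt methyltransferases (3 of 8) and Rps ribosomal proteins with S6 kinases (15 of 42). Shisa2 fell by 1.58. The Rtn reticulons had 3 of 8 members in each direction. Among all tested genes 12.2% rose and 10% fell. The families were ranked on these same shares, so a high share in a small family was part of the selection. The Rap and Rtn stems, also with 3 of 8 rising, were tied with the last of the rising families and cut by alphabetical order.

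The same lists differed in how far they moved in the hippocampus of the same age, where 15.8% of genes were called, 8.92% higher and 6.91% lower. Both regions were dissected from each mouse, but the interaction of genotype and region took the 16 libraries as independent. The interaction passed for 841 of 18413 genes (4.57%), with the cortical difference the larger for 645. It passed for 580 without WT3 and WT4, for 1624 without KI2 of the cortex, for 559 without WT1 of the hippocampus and for 1259 with the replicate block. Glycolysis had a median of 0.43 in cortex and 0.20 in hippocampus with 6 of 22 members passing the interaction, and Ldhb differed by -0.43 ± 0.08 (adjusted p = 0.00434). Synaptic vesicle genes passed it for 15 of 64 and voltage-gated potassium channels for 10 of 41. Nefm fell in cortex by 0.85 and changed by 0.44 in hippocampus, a difference of -1.28 ± 0.11 (adjusted p = 1.97e-05). Tsnax, an RNA-binding partner of translin, had a difference of -0.70 ± 0.07 (adjusted p = 0.000122). Sst rose by 1.22 in cortex and was at 0.13 in hippocampus, a difference of 1.09 ± 0.21 (adjusted p = 0.006). Cyfip2 itself was at -0.44 in cortex and -0.04 in hippocampus, with an adjusted p of 0.0444 for the difference.

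Glial lists had more calls in the hippocampus. Reactive astrocyte genes rose for 15 of 28 in hippocampus with a median of 0.75, and activated microglia genes for 20 of 28 with a median of 0.60, against 5 and 8 in cortex, and the interaction passed for 6 and 4 members. Mature myelin genes fell for 4 of 26 in cortex and rose for 6 in hippocampus, with medians of -0.24 and 0.22 and 4 members passing the interaction. The proteasome, with 10 of 38 rising in hippocampus, the unfolded protein response, with 10 of 30 falling there, and the SR proteins, with 11 of 24 falling, had no member that passed the interaction. Clock genes fell for 7 and rose for 2 of 18 in hippocampus, and 3 passed it.

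At PWK 14 the cortex had far fewer calls, 951 genes (5.18%), 2.48% higher and 2.70% lower. Glycolysis rose for 1 of 22 with a median of 0.14, the proteasome for none of 38 with a median of 0.04 and clock genes fell for 2 of 18 with a median of -0.16. Peptide precursors had 6 increases and 3 decreases of 21, and postsynaptic genes 14 decreases of 47. The interaction of genotype and age passed for 0 of 18398 genes in limma (0.00%), with 2770 at an unadjusted p under 0.05, so none of these lists was shown to differ between the ages. Without KI2 of PWK 28 it passed for 822 genes and without KI1 of PWK 14 for 503. The smallest adjusted p, 0.0749, was reached by Mat2a, the enzyme of S-adenosylmethionine synthesis, Ccdc134 and Tsc22d3.

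**Figure D5:**
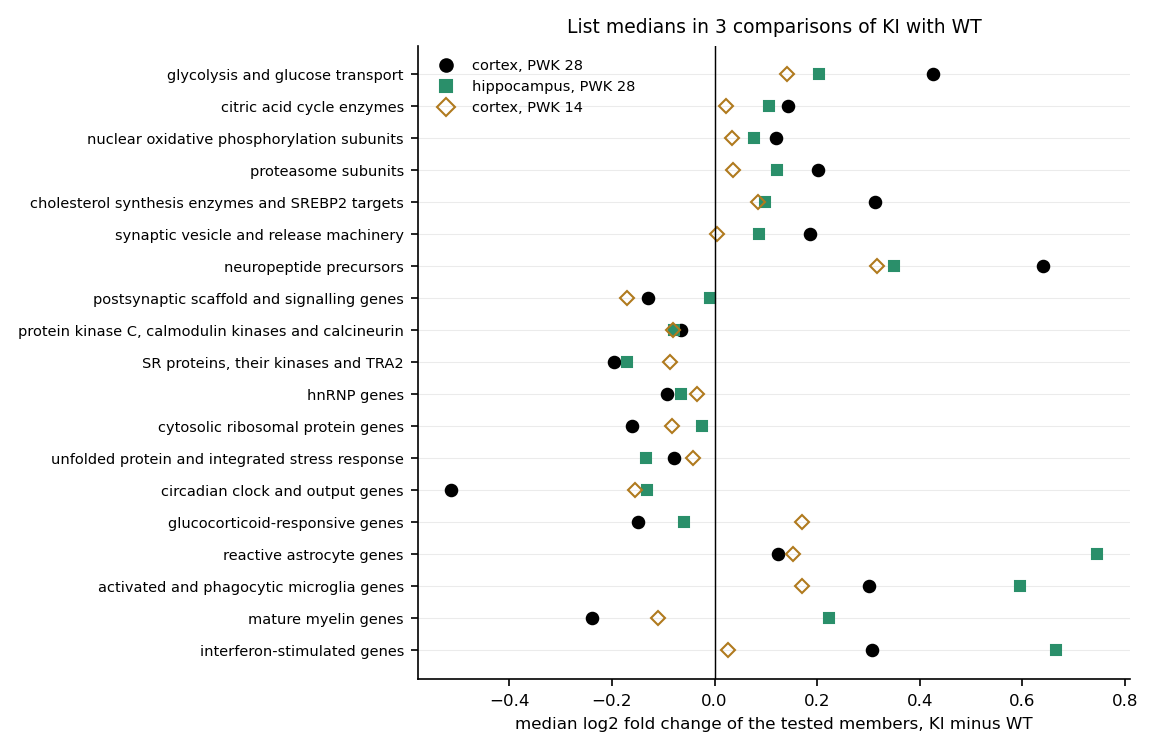
Each row is a gene list and each point the median log2 fold change of its tested members, KI minus WT, in the cortex at PWK 28 (black circles), the hippocampus at PWK 28 (green squares) and the cortex at PWK 14 (open diamonds). Neuropeptide precursors and glycolysis lie furthest right in cortex at PWK 28 (0.64 and 0.43), and the clock genes furthest left there (-0.51). In hippocampus the reactive astrocyte, interferon-stimulated and activated microglia lists lie furthest right (0.75, 0.67 and 0.60).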

How the data were processed

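Normalized counts were used as deposited. According to the study's methods, the authors quantified 101-bp paired-end reads with Salmon, imported the estimates with tximport and tested genes with DESeq2. The deposited values are DESeq2-normalized counts, so they are a normalized signal and not raw counts, and their original depth cannot be read from them. Median log ratios to the gene means had a range of 9.8e-15 over the 64 libraries, as joint normalization gives. The methods do not state how the libraries were grouped for normalization. The submitters' processing notes name Salmon 0.11.2, DESeq2 1.19.11, R 3.6.0 and GRCm38, while the study's methods give later versions of the 3 tools; which made the table is not known. The sources also differ on the library kit, an mRNA kit in the labels and a total RNA kit in the methods. Totals of the 8 libraries were 30.8 to 32.6 M normalized counts, with 126 to 164 genes at 0.

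Genes with a mean of at least 1 were tested by limma 3.58.1 in R 4.3.3 on log2(value + 1) with an intensity trend, 4 KI against 4 WT, with Benjamini-Hochberg adjustment over all tested genes and a threshold of 0.05. Fold changes are on that scale, with ± standard error, and understate the change of low genes. The region and age interactions used 16 libraries each, taken as independent, so the cortex and hippocampus of a mouse were not paired. With 4 against 4, an exact permutation test of a single gene cannot go below a p of 0.0286. The limma step was tested on simulated data. Tables and figures used Python 3.11.15, pandas 2.3.3 and numpy 2.4.6. Of 18432 genes, 18420 matched the GENCODE annotation. Promoter windows were RefSeq sequences of 300 bases, 250 before and 50 after the transcript start, searched whole.

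The comparison and the 83 gene lists were chosen with earlier results of these data known. A list member is called by the test over all genes, and no test was run over a list. The text names Cyfip2, preset key genes of each list, up to 4 called members per list and direction with the largest change, the 10 largest non-overlapping changes per direction among genes with a mean of at least 31 in the higher group, 3 genes per interaction and, of symbol families with at least 8 members, those with the highest share called. Some genes that this rule names are not reported here. Outside this rule, after their values were seen, the text names Bhlhe41, Calr, Canx, Cck, Chgb, Ciart, Clock, Cort, Creld2, Cry1, Cry2, Ddx3y, Dnajc3, Eomes, Hsp90b1, Manf, Npas2, Nrn1, Nts, Pdia6, Pdyn, Penk, Per2, Pgk1, Pkm, Plk2, Pnoc, Scg2, Slc16a1, Slc2a3, Tac1, Tac2, Tmem119, Tpi1 and Trh. Leaving out WT3 with WT4, or WT1 with WT2, was chosen after seeing the data.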

Additional observations from a re-analysis of the deposited data

Results flagged for a closer look

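For 19 of 366 sets of 4 libraries (183 named genes, each in KI and in WT), 1 library lay far from the other 3, with a gap above Dixon's critical value, which chance gives in about 1 in 20 sets. KI2 was that library 8 times: Akr1c18 at 115, Grm2 at 935, Lamp5 at 2898, Ldhb at 9026, Otof at 404, Pkm at 37969, Plk5 at 103 and Slc17a6 at 384. In each of these genes KI2 was the KI library nearest to WT. In the other libraries the values that stood apart were Atf6 at 5974 and Fezf2 at 534 in KI1, Doc2a at 1025 and Rgs13 at 8.24 in WT1, Grp at 249.8 and Ntf3 at 26 in WT3, Has3 at 81.4 and Ttr at 20074 in WT2, Lgals3 at 7.21 and Srsf5 at 11125 in WT4 and Ttr at 689 in KI3, in normalized counts.

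The KI effect differed between cortex and hippocampus at PWK 28, by limma's interaction test, for 57 of the 183 named genes. The difference, cortex minus hippocampus on the log2 scale, was positive for Gbx1 (5.07), Fgr (3.54), Acaa1b (3.34), Pgr15l (2.82), C1ql2 (2.65), Lgals3 (2.63), Cdh23 (2.10), Tgfb1 (1.67), Grin3a (1.25), Aspg (1.21), Cck (1.13), Sst (1.09), Chga (0.97), Jun (0.94), Nptx1 (0.91), Kcnab1 (0.83), Syn2 (0.82), Amph (0.67), Kcnh1 (0.55), Hapln4 (0.51), Slc17a7 (0.49), Map1b (0.42), Hk1 (0.39), Pkm (0.38), Stmn2 (0.38), Slc2a3 (0.36) and Aldoa (0.35). It was negative for Grp (-3.15), Plk5 (-3.05), Calb2 (-2.74), Nlrp6 (-2.66), Penk (-2.32), Kcnh4 (-1.82), Frzb (-1.56), Shisa2 (-1.38), Grm2 (-1.34), Nefm (-1.28), Lamp5 (-1.25), Pcsk1 (-0.93), Dbp (-0.86), Bhlhe40 (-0.85), Dcx (-0.82), Stx1a (-0.79), Synpo (-0.78), Camk2n1 (-0.75), Ccdc134 (-0.72), Tsnax (-0.70), Camk1g (-0.65), Fezf2 (-0.65), Nefl (-0.62), Vip (-0.61), Camk2a (-0.60), Homer2 (-0.50), Syt7 (-0.49), Per2 (-0.46), Ldhb (-0.43) and Cyfip2 (-0.40). Calb2, Cdh23 and Dcx are examples whose cortical WT level was highest in WT3 and WT4.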

How the results depend on the processing

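The number of genes called in the cortex at PWK 28, 4081, stayed within 1.5 times of itself with another pseudocount, filter, scaling or GC and length correction (3917 to 4152), with sample quality weights (4774), with 1 spread for all 64 libraries (6114) and without any 1 library (2782 to 5090, the highest without KI2). It was 1417 without WT3 and WT4 and 1428 without WT1 and WT2, similar falls for either pair. KI and WT libraries share only a replicate number: correlations of same-numbered deviations were -0.033 to 0.155, 1 of 4 pairs over 0.1 and 2 of 4 best with their own number, and the replicate block gave 3513 calls, or 3614 with the GC and length correction. The region interaction, 841, was 1259 with the replicate block, 1318 with the block and GC and length correction, 1319 with 1 spread for all libraries, 559 to 1624 without 1 library, 580 without WT3 and WT4 and 469 without WT1 and WT2. In that contrast same-numbered cortex and hippocampus libraries correlated at 0.25 to 0.458 in KI and -0.039 to 0.091 in WT. The age interaction, 0, was 9 with equal totals, 908 with quality weights, 914 with 1 spread, 0 to 822 without 1 library, 0 without WT3 and WT4 and 23 without WT1 and WT2; the cause was not tested. Of 161 named genes that were called, 86 kept the call in every alternative and none reversed, while 64 lost it without WT3 and WT4 and 60 without WT1 and WT2. Leaving out 1 library moved 4 (KI2) to 17 (WT1) of 57 list counts of at least 5 by over 1.5 times; among those, mitochondrial ribosomal genes rose for 2 or 3 without any 1 library but KI2 (8), RGS genes for 3 without KI3, WT2 or WT4, and cadherins outside the clusters fell for 3 without KI1, KI3, WT1, WT3 or WT4. The rising and falling counts of glycolysis, synaptic vesicle, clock and unfolded protein genes were moved that far by no single library, while the 4 peptide precursors that fell became 2 without KI3. With libraries scaled to the same total the rising and falling counts became 1 and 6 for homeostatic astrocyte genes, 2 and 1 for oligodendrocyte precursor genes, 3 and 2 for fatty acid synthesis, 2 and 4 for fatty acid oxidation, 1 and 1 for HCN genes, 1 and 2 for metabotropic glutamate receptors, 0 and 11 for hnRNP genes, 2 and 9 for heat shock genes, 5 and 2 for perineuronal net genes, 1 and 5 for histones and 4 and 5 for meningeal markers. The deposited values hold no read counts, so depth sets an unknown limit on low genes, and with 4 mice a group small differences could be missed.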

Other observations

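The counts of the gene lists not described above are given for the cortex at PWK 28, where 12.2% of all genes rose and 10% fell, and without WT3 and WT4, where 4.74% rose and 2.97% fell. Of 23 endothelial and pericyte genes 5 rose and 3 fell, and none of them passed without WT3 and WT4. Of 28 interferon-stimulated genes 3 rose and 1 fell, of 17 complement genes 2 rose, and of 19 genes of antigen presentation 1 rose and 1 fell; without WT3 and WT4 1 complement gene and no other member of these 3 lists passed. Homeostatic astrocyte genes rose for 2 and fell for 5 of 25, and oligodendrocyte precursor genes rose for 2 of 17; without WT3 and WT4 3 of the former fell and none of the latter passed. Fatty acid oxidation genes rose for 3 and fell for 3 of 23, with the peroxisomal thiolase Acaa1b at 234, 152, 295 and 150.4 in the KI libraries and 11.5, 12.9, 9.83 and 12.3 in the WT libraries (log2 fold change 3.99 ± 0.25, adjusted p = 4.33e-05). Fatty acid synthesis genes rose for 3 and fell for 1 of 20, and genes of cholesterol efflux and lipid droplets fell for 2 of 20. Without WT3 and WT4 these 3 lists had 2 rising and 1 falling member, 1 and 1, and 0 and 1.

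Of 15 voltage-gated calcium channel genes 4 rose and 2 fell, of 25 other potassium channels 3 and 5, of 5 genes for HCN channels and their partner Pex5l 1 and 0 and of 17 AMPA receptor auxiliary subunits 2 and 4; without WT3 and WT4 the counts were 2 and 1, 0 and 3, 1 and 0, and 0 and 0. Phosphodiesterases and adenylyl cyclases rose for 5 and fell for 6 of 35, hypoxia-responsive genes for 3 and 3 of 14, metallothioneins and zinc transporters for 2 and 2 of 15, RNA helicases for 1 and 4 of 53 and genes of replication and mitosis for 1 and 2 of 25; without WT3 and WT4 the counts were 3 and 3, 1 and 3, 0 and 0, 2 and 0, and 1 and 0. Striatal markers rose for 1 and fell for 2 of 14, choroid plexus markers fell for 2 of 14 (without WT3 and WT4, 1 and 1, and 0), none of the 9 olfactory bulb markers was called (3 rose without WT3 and WT4), and the 2 cold-inducible RNA-binding protein genes did not pass the test.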
